A study of Homo sapiens with 5 samples.

Results

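The genes described here are 36 genes of mitosis and the mitotic spindle, chosen by name from textbook knowledge of how a cell divides. They cover the cyclins and the kinase that start mitosis, the mitotic kinases, the spindle checkpoint, the kinetochore, the machinery that separates sister chromatids, and the proteins that build the spindle and cut the cell apart. Of 11963 genes that a probe set of the array names alone, these 36 were all measured. Each gene was taken at its brightest probe set (by the mean of the 5 arrays), and the rule that names the genes holds no measured value, although earlier results of these data were known when it was set.

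The RNA came from HES2, an established human embryonic stem cell (hESC) line, after 2 weeks of spontaneous differentiation in medium with neither bFGF nor feeder cells. Before that, the cells had been kept undifferentiated on feeder cells derived from foreskin. Cells of the treatment group had received wt miR-122 from a lentiviral vector (2 arrays), and control cells had received the same vector with a mutant miR-122 whose seed sequence is altered (3 arrays). In both groups the human H1 promoter drove the miRNA, and a red fluorescent reporter stood under the EF1α promoter of the same vector. The cells were transduced as a population and not grown from 1 clone, so the RNA may include cells without the vector. No array of untransduced cells or of cells with an empty vector was analysed here. According to the methods the arrays come from independent experiments.

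miR-122 is a miRNA of the liver. A miRNA pairs with its target mRNAs mainly through its seed, bases 2 to 8 from the 5′ end, so a change in the seed alters which mRNAs it can hold down. The sequence is shown because the seed is what differs between the groups. It lies at chr18:58451088-58451109 on the plus strand (RefSeq, GRCh38.p14), with the seed in capitals.
hsa-miR-122-5p: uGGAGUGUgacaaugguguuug

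Mitosis genes are transcribed late in the cell cycle. In resting cells and early in the cycle their promoters are held shut by a repressor complex called DREAM, and later in the cycle the MuvB core of this complex joins the activators MYBL2 and FOXM1 and turns them on. Their mRNAs therefore come mostly from cells that are in G2 or in mitosis. Undifferentiated hESC cycle fast, and cells that leave this state usually cycle more slowly. In RNA from a whole culture, fewer cells of a type or stage and less RNA per cell cannot be told apart.

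The mean was higher in wt than in mutant miR-122-expressing cells for 36 of the 36 genes, by a small amount each. The median log2 difference (wt minus mutant) was 0.22, against 0.03 over all genes, and the single differences ranged from 0.03 (ZWINT) to 0.37 (NUSAP1). As folds of wt over mutant these are a median of 1.17, a lowest value of 1.02 and a highest of 1.29. A difference above 0 was found in 58.4% of all genes.

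No single gene passed the test. After Benjamini-Hochberg adjustment over all probe sets, limma called 0 of the 36 higher and 0 lower at an adjusted p under 0.05, where 0.267% of all genes were called higher and 0.234% lower. The adjusted p ranged from 0.128 (NUSAP1) to 0.929 (ZWINT). At an unadjusted p under 0.05, 21 of the 36 were higher and 0 lower, against 8.84% and 6.87% of all genes. The methods' t-test gave 21 genes at this level too, and 0 after adjustment. Both wt arrays lay above all 3 mutant arrays in 29 of the 36, and both lay below in 0. Over all genes the groups were apart in this way in 21.5% (wt higher) and 13.4% (wt lower). With 3 arrays against 2, an exact two-sided permutation test of a single gene cannot give a p below 0.1. The standard error (SE) of the differences lay between 0.0722 and 0.0943 on the log2 scale.

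**Figure D1:**
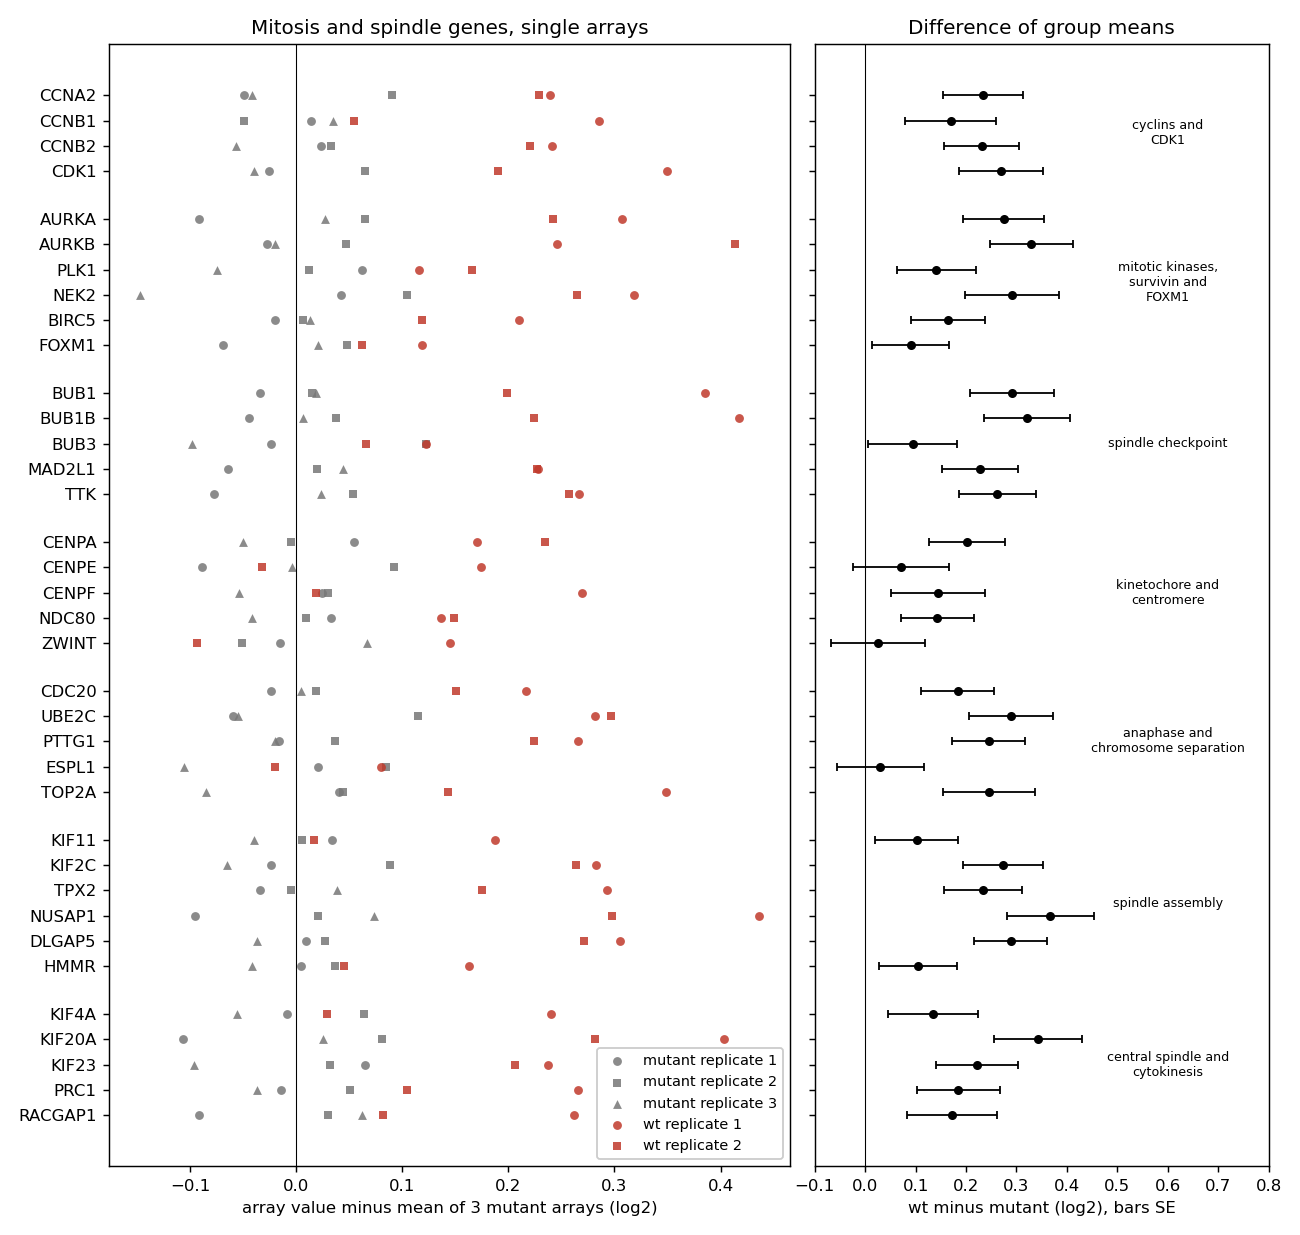
The left panel plots each gene's value on each of the 5 arrays minus the mean of the 3 mutant arrays (log2; red, wt; grey, mutant), and the right panel plots the wt minus mutant difference with its SE from limma. The right-hand points all lie above 0, and in 29 of the 36 rows both red points lie to the right of the 3 grey ones.

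Cyclins A2, B1 and B2 are the regulatory subunits that switch on CDK1, and cyclin B with CDK1 is the kinase that drives a cell into mitosis. The 4 genes had a median log2 difference of 0.23, and in each of them both wt arrays were above the mutant arrays. CDK1 was at 10.47, 10.56 and 10.46 on the mutant arrays and at 10.85 and 10.69 on the wt arrays. These values leave a gap between the groups, with a difference of 0.27 (SE 0.0833, adjusted p = 0.209 from limma). CCNB2 was at 10.32, 10.33 and 10.24 on the mutant arrays against 10.54 and 10.52, a difference of 0.23 (SE 0.0738, adjusted p = 0.220 from limma). For CCNA2, whose product acts in S phase and G2, the mutant arrays read 8.95, 9.09 and 8.95 and the wt arrays 9.23 and 9.22. CCNB1 was apart by little. Its mutant arrays lay between 10.27 and 10.36, and wt replicate 2 was at 10.38 where wt replicate 1 was at 10.61.

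Among the mitotic kinases, Aurora A (AURKA) works at the spindle poles and Aurora B (AURKB) at the centromere, where it corrects faulty attachments. AURKB was at 8.09, 8.16 and 8.10 in mutant and at 8.36 and 8.53 in wt miR-122-expressing cells. The difference of 0.33 (SE 0.0821, adjusted p = 0.144 from limma) is a fold of 1.26, and here wt replicate 2 was the higher of the pair. AURKA had a mutant mean of 9.68 ± 0.082 (SD, n = 3) and a wt mean of 9.95 ± 0.046 (SD, n = 2), a difference of 0.27. NEK2, a centrosome kinase, differed by 0.29, with the mutant arrays spread from 8.71 to 8.96 and the wt arrays at 9.18 and 9.12. Smaller differences were measured for PLK1 (0.14), a kinase needed at nearly every step of mitosis, and for BIRC5 (0.16), which encodes survivin, a partner of Aurora B. FOXM1, the transcription factor that switches on many of these genes in G2, differed by 0.09 (SE 0.0767, adjusted p = 0.638 from limma). In the 6 genes of this group both wt arrays were above the mutant arrays, by the smallest gap in FOXM1, where wt replicate 2 read 8.35 and mutant replicate 2 read 8.34.

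The spindle checkpoint holds back anaphase until every chromosome is attached. BUB1B encodes BUBR1, a part of the complex that inhibits the anaphase-promoting complex. It was at 9.58, 9.66 and 9.63 on the mutant arrays and at 10.04 and 9.84 on the wt arrays, a difference of 0.32 (SE 0.0852, adjusted p = 0.163 from limma). BUB1, a kinase of the kinetochore, differed by 0.29, and TTK (MPS1), the kinase that starts the checkpoint signal, by 0.26. MAD2L1, the inhibitor MAD2, was at 9.36, 9.45 and 9.47 against 9.66 and 9.66. These 4 genes were apart between the groups, each with both wt arrays on top. The groups of BUB3, which brings BUB1 and BUBR1 to the kinetochore, overlapped: mutant replicate 2 and wt replicate 1 both read 9.87. Its other probe sets gave larger differences, as shown after the single genes.

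Kinetochore and centromere genes had the lowest median of the 7 groups, 0.14 over 5 genes. CENPA, the histone H3 variant that marks the centromere, was at 8.12, 8.06 and 8.01 in mutant and at 8.23 and 8.30 in wt cells. Its difference was 0.20 (SE 0.0756, adjusted p = 0.287 from limma). NDC80, which binds the microtubule end, differed by 0.14, with mutant arrays from 8.27 to 8.35 and wt arrays at 8.45 and 8.46. In the other members of this group the groups overlapped. ZWINT, a kinetochore scaffold protein, read 9.84 on wt replicate 1 and 9.60 on wt replicate 2, the highest and the lowest of its 5 values, around mutant values of 9.68, 9.64 and 9.76. CENPE, a kinesin that moves chromosomes to the spindle equator, read 8.41 and 8.20 on the wt arrays, and the lower of these lay within the mutant range of 8.15 to 8.33. CENPF, a large kinetochore protein, read 10.31 and 10.06, where the mutant arrays lay between 9.98 and 10.07. In both genes, wt replicate 1 was above all mutant arrays and wt replicate 2 was not.

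Once the checkpoint is satisfied, CDC20 activates the anaphase-promoting complex, for which UBE2C is the ubiquitin-conjugating enzyme. The complex destroys securin (PTTG1) and so frees separase (ESPL1), which cuts the cohesin rings. UBE2C was at 10.77, 10.95 and 10.78 in mutant and at 11.12 and 11.13 in wt miR-122-expressing cells. The difference was 0.29 (SE 0.0838, adjusted p = 0.190 from limma), and both wt arrays were clear of the mutant spread. PTTG1 was at 11.15 ± 0.032 (SD, n = 3) against 11.40 ± 0.029 (SD, n = 2), and CDC20 differed by 0.18, with mutant arrays from 9.79 to 9.83 and wt arrays at 10.03 and 9.96. Securin has near-identical gene copies, and its probe set carries the suffix _x_at, given to sets with probes that match several transcripts, so its values may include theirs. The probe sets of FOXM1 and CENPA carry this suffix too. ESPL1 stood apart from its partners: the mutant arrays read 8.55, 8.61 and 8.42 and the wt arrays 8.61 and 8.51, a difference of 0.03 (SE 0.0862, adjusted p = 0.909 from limma). TOP2A, the topoisomerase that untangles sister DNA before they part, differed by 0.25, with mutant arrays from 10.77 to 10.89 and wt arrays at 11.20 and 10.99.

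The 6 genes of spindle assembly included NUSAP1, a protein that bundles microtubules near chromosomes, which had the largest difference of the 36. It read 9.98, 10.10 and 10.15 on the mutant arrays and 10.51 and 10.37 on the wt arrays. The lower wt array was above the highest mutant array, and the difference of 0.37 (SE 0.0866, adjusted p = 0.128 from limma) is a fold of 1.29. DLGAP5 (HURP), which steadies the fibres attached to kinetochores, was at 9.39, 9.41 and 9.34 against 9.69 and 9.65. Its difference of 0.29 had the lowest SE of the 36, 0.0722, with an adjusted p of 0.145 from limma. KIF2C (MCAK), a kinesin that takes microtubules apart at the centromere, differed by 0.27, and TPX2, which activates Aurora A on the spindle, by 0.23. HMMR, a protein of the spindle poles, differed by 0.10, with wt replicate 2 at 10.04 just above a highest mutant array that read the same at this rounding. KIF11 (Eg5), the motor that pushes the spindle poles apart, read 8.40 and 8.22 on the wt arrays, and the lower of these lay within the mutant range of 8.17 to 8.24.

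After chromosome separation a bundle of microtubules, the central spindle, marks where the cell will divide. KIF20A (MKLP2), the kinesin that carries Aurora B to this bundle, was at 9.00, 9.18 and 9.13 on the mutant arrays and at 9.51 and 9.38 on the wt arrays. The groups were apart, by 0.34 (SE 0.0875, adjusted p = 0.150 from limma). KIF23 (MKLP1) and RACGAP1 together form centralspindlin, which directs the contractile ring, and they differed by 0.22 and 0.17. PRC1, which crosslinks the bundle, differed by 0.18. KIF4A, the kinesin that PRC1 binds to limit the bundle's length, differed by 0.13, and its wt replicate 2 (8.59) lay inside the mutant range of 8.50 to 8.62. KIF4A has a near-identical copy, KIF4B, and whether its probes also read that copy was not tested.

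The 2 wt arrays did not contribute equally. Wt replicate 1 was the highest of the 5 arrays for 29 genes and wt replicate 2 for 5, and wt replicate 1 was above wt replicate 2 in 31 of the 36. The median gap between them was 0.08 on the log2 scale, against 0.02 over all genes. Measured from the mean of the mutant arrays, the median difference was 0.25 for wt replicate 1 and 0.18 for wt replicate 2. Without wt replicate 1, 7 of the 36 genes were higher at an unadjusted p under 0.05 (6.04% of all genes), and 33 differences were above 0. The median was then 0.18, and 29 genes were still above all mutant arrays, as were 34.4% of all genes in a comparison of 1 array with 3. Without wt replicate 2, 20 genes were higher at an unadjusted p under 0.05 (5.89% of all genes), 34 were above all mutant arrays and the median was 0.25. On the mutant side, replicate 3 was the lowest of the 5 arrays for 18 genes, replicate 1 for 16 and replicate 2 for 1.

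Several of the genes are read by more than 1 probe set, which gives a second look at the same arrays but not at other cells. There were 58 probe sets that name 1 of the 36 genes alone, and the difference was above 0 in 58 of them. The groups were apart in 41, each time with wt higher. Over all genes at their brightest probe set, 58.4% were above 0 and 21.5% were apart with wt higher. No such share was computed over all probe sets. Of the 22 dimmer probe sets, which took no part above, 22 had a difference above 0. The probe sets of a gene were not of 1 size, however. CCNA2 differed by 0.23 at its brightest probe set and by 0.42 at its other probe set, where the mutant arrays read 8.68, 8.63 and 8.75 and the wt arrays 9.19 and 9.03. That probe set had the lowest adjusted p of the 58, 0.0917 from limma. BUB3 was at 0.09 at its brightest probe set, with overlapping groups, and at 0.32 at the next brightest, with groups apart. TOP2A was at 0.25 and 0.36, and NUSAP1 at 0.37 and 0.25. BUB1 was at 0.29 at its brightest probe set, and its dimmer ones were at 0.19, 0.19, 0.07 and 0.03, each with overlapping groups. Both probe sets of ESPL1 were near 0, at 0.03 and 0.02. The dimmest probe set of AURKA, at 4.83 to 4.99, was at 0.04, with overlapping groups. A brighter probe set that names CENPA together with SLC35F6 was not used for CENPA, and it differed by 0.19 (SE 0.0841, adjusted p = 0.346 from limma).

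Other genes of the cell cycle were then described from lists written in the same way. Of 113 further measured mitosis genes (of 127 listed), 90 had a difference above 0, and 0 passed the adjusted threshold in either direction. At an unadjusted p under 0.05, 32 were higher and 5 lower, and their median was 0.11. Both wt arrays were above the mutant arrays in 52 and below them in 10. Over all genes, 8.84% were higher and 6.87% lower at this unadjusted p, and 21.5% and 13.4% were apart in these directions. The 4 with the smallest p were KIF15 (0.45), a spindle kinesin, FBXO5 (0.35), which encodes the inhibitor EMI1 of the anaphase-promoting complex, HJURP (0.36), the chaperone that loads CENPA, and NFYB (0.35), a subunit of the CCAAT-binding factor NF-Y. The adjusted p of KIF15 was 0.0840 from limma.

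DNA replication genes, which act in preparing and carrying out the copying of DNA, had a median of 0.15. Of 51 measured (of 53 listed), 49 had a difference above 0, 36 were apart with wt higher and 0 with wt lower, and 0 passed the adjusted threshold. At an unadjusted p under 0.05, 15 were higher and 0 lower. Over all genes, 8.84% were higher and 6.87% lower at this level. The smallest p belonged to ORC2 (0.36) and ORC1 (0.34), subunits of the complex that marks replication origins, to PRIM1 (0.36), the primase, and to CDT1 (0.35), which loads the helicase. The list of G1 cyclins, their kinases and the CDK inhibitors gave another picture: of 19 measured (of 20 listed), 8 were above 0 and 11 below, with a median of -0.09. At an unadjusted p under 0.05, 2 were higher and 2 lower, and 0 passed after adjustment. The groups were apart in 3 genes with wt higher, below the share over all genes (21.5%), and in 8 with wt lower, above that share (13.4%). CDKN2B, the inhibitor p15 of CDK4 and CDK6, read 5.76, 5.17 and 5.61 on the mutant arrays and 4.80 and 4.60 on the wt arrays, a difference of -0.81 (SE 0.164, adjusted p = 0.0934 from limma). CDKN2A, which encodes the inhibitors p16 and ARF, was at -0.31, while CDK7, the kinase that activates other CDKs, was at 0.24 and CDKN1B, the inhibitor p27, at 0.22.

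**Figure D2:**
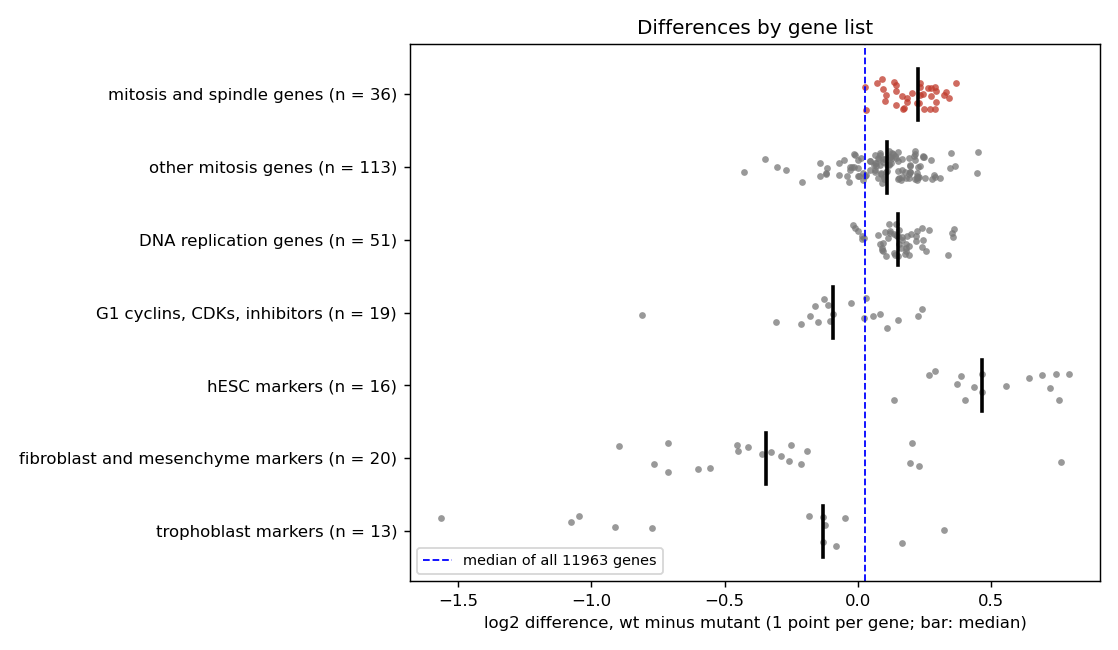
Each point is the log2 difference (wt minus mutant) of 1 gene, the black bar is the median of its list, and the dashed line is the median of all 11963 genes (0.03). The mitosis and spindle genes lie from 0.03 to 0.37 with a median of 0.22, between the medians of the DNA replication genes (0.15) and the hESC markers (0.46). The hepatic and endoderm list (median 0.24) and the neural progenitor list (0.05) are not drawn.

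The cultures also differed in markers of cell types, on the same arrays as in the mitosis genes. Of 16 measured markers of undifferentiated hESC (of 20 listed), 16 had a difference above 0, 15 were apart between the groups with wt higher, and 5 rose in wt cells at an adjusted p under 0.05. They were DNMT3B (0.72), a DNA methyltransferase, JARID2 (0.69), a cofactor of the Polycomb complex, UTF1 (0.75), a chromatin protein, POLR3G (0.74), which belongs to RNA polymerase III, and FGF4 (0.56), a growth factor named here after its value was seen. NANOG, a defining factor of the undifferentiated state also named after its value was seen, read 8.70, 8.56 and 8.98 on the mutant arrays and 9.42 and 9.65 on the wt arrays. The marker was thus read well above the array medians in both groups, after 2 weeks of differentiation. POU5F1, another defining factor, is read by a probe set that names several genes, so it was left out here. Over all genes, 21.5% were apart with wt higher and 0.267% were higher at an adjusted p under 0.05. The mean level of the hESC list was 8.39 to 8.54 on the mutant arrays and 8.93 and 8.98 on the wt arrays. Of the 16 markers, 9 were higher on wt replicate 1 than on wt replicate 2. The mean level of the mitosis genes was 9.34, 9.40 and 9.33 on the mutant arrays and 9.61 and 9.52 on the wt arrays.

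Fibroblast and mesenchyme markers were lower: 16 of 20 measured had a difference below 0, 11 were apart with wt lower and 0 with wt higher, and the median was -0.34. None passed the adjusted threshold (13 were lower at an unadjusted p under 0.05), and the smallest p belonged to PDGFRB (-0.56), COL5A1 (-0.77), COL1A1 (-0.60) and COL3A1 (-0.71), a growth factor receptor and 3 collagens. Their mean level was 8.86, 8.92 and 9.17 on the mutant arrays and 8.52 and 8.84 on the wt arrays, so wt replicate 1, the highest array in most mitosis genes, was the lowest here. Of 13 measured trophoblast markers (of 15 listed), 11 were below 0, the median was -0.13 and 3 fell at an adjusted p under 0.05: HAND1 (-0.91), a transcription factor, CRH (-1.04), a peptide hormone, and HSD3B1 (-1.56), a steroid enzyme. CGA, the common subunit of the glycoprotein hormones, was at -1.08. Most of the other members were nearer to 0, and TFAP2C, a transcription factor named after its value was seen, was at 0.32 with both wt arrays above the mutant arrays. Over all genes, 13.4% were apart with wt lower, 6.87% were lower at an unadjusted p under 0.05 and 0.234% at an adjusted one. The mean level of the trophoblast list was 7.38 to 7.55 on the mutant arrays and 7.08 and 6.99 on the wt arrays. The neural progenitor list (9 of 12 measured) and the list of hepatic and endoderm markers (19 of 20) had medians of 0.05 and 0.24, and 0 members of either passed after adjustment. By p their leading genes were NES (-0.26), FABP7 (0.29), NCAM1 (-0.20) and DLX2 (-0.39), and HHEX (0.91), CXCR4 (0.65), GATA6 (-0.49) and RBP4 (0.30). HHEX read 3.58 to 3.84 on the mutant arrays and 4.44 and 4.88 on the wt arrays. RBP4 lay between 4.45 and 5.05, so both genes were read below the array medians. The part of these cell types in the differences of the mitosis genes was not tested.

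**Figure D3:**
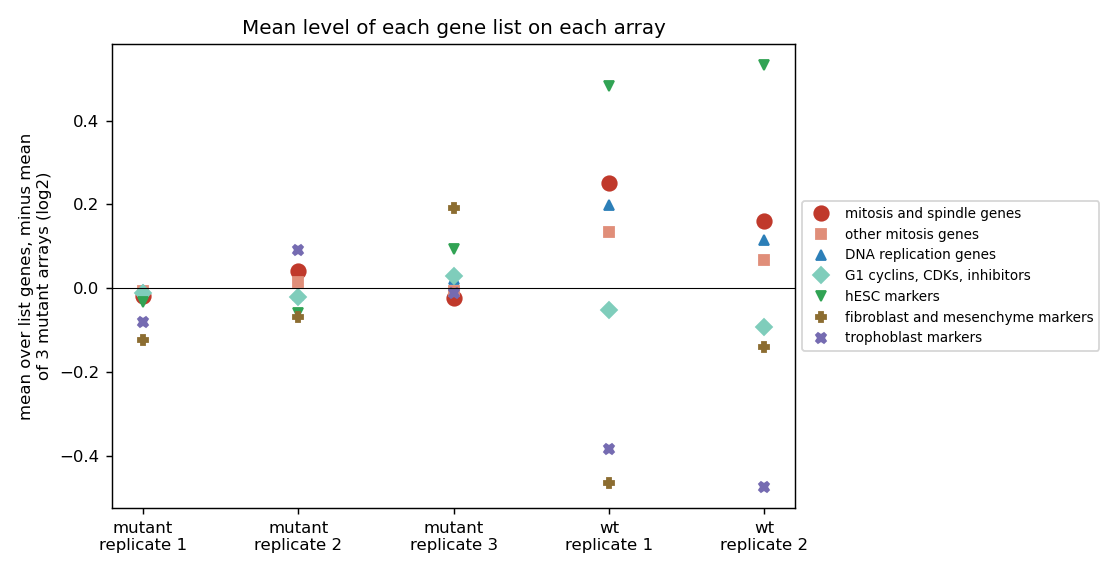
For each array the points give the mean log2 level of a gene list minus its mean over the 3 mutant arrays. The mitosis and spindle genes, the other mitosis genes, the DNA replication genes and the hESC markers are above 0 on both wt arrays, and the mesenchyme, trophoblast and G1 lists are below 0 on both.

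The promoters of the mitosis genes were read for the elements that the DREAM and MuvB complexes and NF-Y are known to use, a feature that the choice of genes did not rest on. The element called CHR (cell cycle genes homology region) was searched as TTTGAA, and the NF-Y site as CCAAT, both on either strand, from 250 bases before to 50 bases after each RefSeq start site (GRCh38.p14). Only these exact letters count as a match below, so another form of either element would have been missed. The table used held 28 of the 36 genes. AURKA, BIRC5, BUB3, FOXM1, RACGAP1, TPX2, TTK and UBE2C were not matched. The windows printed here are the 120 bases before the start, read on the gene's own strand, for 1 gene of each of the 7 groups above. They were picked because they hold a CHR close to the start. Capitals mark TTTGAA and CCAAT, or ATTGG where the site lies on the opposite strand. In CCNB2, PLK1, HMMR and PRC1 the CCAAT boxes come first and the CHR follows nearer to the start, and this closeness was a condition of the pick. In TOP2A, whose window is not printed, the CHRs lie farther from the start than the nearest CCAAT. In CDC20 a CCAAT box also follows the CHR, and the windows of BUB1B and CENPA hold no CCAAT. In HMMR a pair of CHRs stand back to back, and a CCAAT shares bases with an ATTGG. They are CCNB2 at chr15:59105026-59105145 (plus strand), PLK1 at chr16:23678769-23678888 (plus), BUB1B at chr15:40160949-40161068 (plus), CENPA at chr2:26785936-26786055 (plus), CDC20 at chr1:43358861-43358980 (plus), HMMR at chr5:163460512-163460631 (plus) and PRC1 at chr15:90994536-90994655 (minus).
CCNB2: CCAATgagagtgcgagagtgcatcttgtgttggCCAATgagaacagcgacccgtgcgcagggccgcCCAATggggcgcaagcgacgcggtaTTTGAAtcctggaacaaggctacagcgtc
PLK1: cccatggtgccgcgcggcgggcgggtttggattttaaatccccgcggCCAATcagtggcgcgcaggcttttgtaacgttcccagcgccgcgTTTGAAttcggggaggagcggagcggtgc
BUB1B: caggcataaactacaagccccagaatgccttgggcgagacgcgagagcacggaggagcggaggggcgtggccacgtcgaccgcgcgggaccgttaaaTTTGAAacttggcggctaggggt
CENPA: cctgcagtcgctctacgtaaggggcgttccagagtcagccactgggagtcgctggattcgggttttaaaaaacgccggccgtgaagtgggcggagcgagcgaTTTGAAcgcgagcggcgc
CDC20: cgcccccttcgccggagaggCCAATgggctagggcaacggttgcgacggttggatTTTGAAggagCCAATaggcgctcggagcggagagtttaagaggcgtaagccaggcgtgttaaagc
HMMR: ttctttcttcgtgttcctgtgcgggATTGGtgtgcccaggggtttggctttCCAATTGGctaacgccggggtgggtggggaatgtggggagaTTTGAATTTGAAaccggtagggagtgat
PRC1: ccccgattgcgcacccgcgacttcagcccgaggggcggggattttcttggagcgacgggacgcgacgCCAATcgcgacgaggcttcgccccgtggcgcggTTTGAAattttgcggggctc

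A CHR was found in 19 of the 28 genes (67.9%), against 18.2% of all 27305 genes of the table and 15.6% of the 9563 of them that the arrays measured. CCAAT was found in 24 (85.7%), against 39.7% of all genes and 44.2% of the measured ones. Both elements were found in 17 (60.7%), against 8.37% and 8.53%. Counted by promoter, 15.2% of all 35116 promoters held TTTGAA and 34.6% held CCAAT. No CHR shared bases with a CCAAT in these 28 genes. A window of 75 bases before the start was set after the positions had been seen. Within it a whole CHR was present in 13 of the 28 genes (46.4%), against 4.22% of all genes. It lay 29 bases before the start in CCNB2 and PLK1, 23 in BUB1B, 18 in CENPA, 65 in CDC20, 28 and 22 in HMMR, and 20 in PRC1. These counts are a description of letters, and a match does not show that a protein binds there.

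The lists of cell cycle genes differed in these letters. TTTGAA was in 48 of 100 other mitosis genes of the table (48.0%), in 3 of 46 DNA replication genes (6.52%) and in 0 of 14 genes of the G1 list. CCAAT was in 66.0%, 58.7% and 28.6% of the same genes. Among the mitosis and spindle genes, no larger differences went with the letters TTTGAA. The 19 genes with them had a median log2 difference of 0.18 (0.03 to 0.37), and the 9 without had 0.27 (0.07 to 0.34). The 9 may hold a CHR of other letters, which was not searched. NUSAP1, with the largest difference, and ZWINT and ESPL1, with the smallest, each held TTTGAA. Of the letters searched, AURKB, BUB1, CCNA2, CCNB1, KIF20A, NEK2 and PTTG1 held only CCAAT, and CENPE and KIF2C held neither. No test of this was made. For the 11 measured genes of the other mitosis list that encode regulators of this transcription, MuvB, DREAM and NF-Y subunits among them, the median difference was 0.06. In each direction 2 of the 11 were apart, near the shares over all genes (21.5% with wt higher, 13.4% with wt lower).

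The arrays were alike as a whole. Array medians lay between 6.32 and 6.36 on the log2 scale, and pairs of arrays correlated at 0.995 to 0.997 over all probe sets. The values of the mitosis genes lay between 8.01 and 11.42, above these medians on every array. The small number of arrays limits the precision of each difference.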

How the data were processed

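RNA of HES2 cells was measured on 5 Affymetrix expression arrays. The authors normalized the arrays with RMA and deposited 1 log2 value per probe set, which was used as it is. Background correction and quantile normalization within RMA bring the arrays to a common distribution, so a shift shared by most genes would not be seen. Gene names were taken from the platform annotation: 1 gene for 19064 probe sets, several for 1043 and no name for 2108. After 62 controls were left out, 22215 probe sets were tested for group with limma 3.58.1 (lmFit, eBayes; R 4.3.3), which had 3 residual and 4.87 prior degrees of freedom, and Benjamini-Hochberg adjustment over all of them (threshold 0.05). The median SE was 0.0878. The fit was tested on simulated data in which the planted changes were larger than any difference of the mitosis genes. That test does not show how often differences of their size would be called.

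The genes, the other lists and the alternatives were chosen with earlier results of these data known, so no p was adjusted over a list alone and no list was tested. The 36 genes were all named, and of each other list the 4 genes with the smallest unadjusted p. Motifs and windows were read from RefSeq promoter tables with Python 3.11.15, and plots were drawn with matplotlib 3.10.9. Groups follow the sample labels. The alternatives were an intensity trend with a robust prior, the methods' t-test, a filter on dim probe sets, controls kept, probe sets without the suffix _x_at or _s_at, a replicate block, array weights, median centring, repeated quantile normalization, leaving out each array, and the mean of a gene's probe sets.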

Additional observations from a re-analysis of the deposited data

How the results depend on the processing

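Over 15 alternative settings the median difference of the 36 genes stayed between 0.18 (without wt replicate 1) and 0.25 (without wt replicate 2), and of 528 single values 5 changed sign. The intensity trend, the methods' t-test, the filter on dim probe sets and the kept controls left every difference as it was. Their values are among the 528 but could not have changed sign. ESPL1 was at -0.0226 with a replicate block, and from -0.0226 (without mutant replicate 3, and -0.02 without wt replicate 1) to 0.0801 when 1 array was left out. Mutant replicate 3 shares its number with no wt array, so the block takes it out of the difference. The block and the fit without mutant replicate 3 therefore give the same differences, and a sign change in them was counted in both. CENPE ranged from -0.0318 to 0.174 and ZWINT from -0.0935 to 0.145, each below 0 without wt replicate 1. The cause was not tested. The other 33 genes never changed sign. The count of genes higher at an adjusted p under 0.05 was 1 with an intensity trend and a robust prior (NUSAP1, adjusted p = 0.0460 from limma) and 1 with a replicate block (NUSAP1 again, difference 0.40, adjusted p = 0.0327). The block called 1.84% of all genes higher and 2.61% lower. It leaves 1 residual degree of freedom, and with only 2 shared numbers (correlations of deviations 0.147 and 0.123) the arrays are not known to be paired. The block left 16 genes at an unadjusted p under 0.05, with a median of 0.20. Without probe sets of suffix _x_at or _s_at, 24 of the 36 genes remained measured, and 19 of them were apart with wt higher, a fall that comes with the fewer genes. Leaving out 1 array gave 7 to 20 genes higher at an unadjusted p under 0.05, lowest without wt replicate 1, and 0 to 1 gene with wt below all mutant arrays (ZWINT, without wt replicate 1). In the 2 fits without a wt array, the lone wt array is assumed to vary like the mutant arrays.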
